A study of Drosophila melanogaster with 2 samples.

Results

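The testis-specific TAFs and the testis meiotic arrest complex (tMAC) were examined as 10 genes chosen by name, of 17559 genes in all. The rule uses no measured value, but it was written with earlier results of these data known. They are 5 testis homologs of TFIID subunits, *can*, *sa*, *mia*, *nht* and *rye*, and 5 tMAC genes, *aly*, *comr*, *topi*, *tomb* and *mip40*. RNA of 10 pooled whole flies per genotype was sequenced in 1 library each. The control flies were w1118. The mutant flies were Taf1_1 heterozygotes from a cross of the mutant stock to w1118, so each heterozygote carries 1 chromosome set from the mutant stock, and the genetic background is shared only in part. In the purchased stock the *taf1* allele sits on a chromosome marked with *red* and *e* alleles. Neither the age nor the sex of the flies is given in the sources used here. The comparison asks whether a lower dose of *taf1* goes along with other levels of the testis forms of its TFIID partners and of the complex that acts with them.

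Taf1 is the largest subunit of TFIID, the general factor that places RNA polymerase II at promoters. In primary spermatocytes of *Drosophila*, testis-specific copies of several other subunits are made, and spermatocytes that lack one of them stop before the meiotic divisions and do not form sperm. The tMAC is a testis relative of the dREAM/MuvB complex and is needed, with the testis TAFs, for the switch to the transcription program of spermatocytes and spermatids. Many spermatid genes, such as *Mst87F* and *dj*, depend on both groups. The cell cycle genes *twe*, *bol* and *CycB* depend on the tMAC for their transcripts.

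The libraries held 16753242 reads (control) and 32364756 reads (mutant), and the mutant library was taken as 1.61 times the size of the control library after TMM scaling (trimmed mean of M-values). Levels are given as CPM (reads per library, scaled to a common total) on this scale with exact 95% Poisson intervals. Ratios of mutant over control have exact 95% conditional binomial intervals. These intervals reflect counting error and nothing else. Because each genotype has 1 library, no p-value was computed, and a difference holds between these libraries without a replicate check. The 11606 genes that had 20 or more reads, both libraries added up, count as measured. Of these, a gene counts as called if its ratio was 1.5-fold or more and the interval did not include equality. *Taf1* itself had 1352 and 1564 reads, or 71.9% of the control level (66.8 to 77.4). This was short of the 1.5-fold limit, so the mutated gene itself was not called. Set against the 200 measured genes nearest to it in length and expression, its log2 ratio went from -0.48 to -0.20. The paper reports a larger reduction of *taf1* cDNA in heterozygous flies by qPCR, which was scaled to reference genes and not by TMM. Both pools contained testis RNA. The 15 measured genes of a spermatid list had 70338 control reads and 134134 mutant reads, whereas 3 genes for yolk proteins, an abundant product of adult females, had few reads. *Yp1*, *Yp2* and *Yp3* had 31, 29 and 207 control reads, and 14, 38 and 329 mutant reads. Other genes of the same female and ovary list went both ways. *grk* had 565 control and 930 mutant reads and *fs(1)N* 507 and 580, whereas *osk* had 7 and 8. The sex of the pooled flies was not tested. In whole flies a smaller testis and less RNA per spermatocyte cannot be told apart.

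None of the testis TAFs or tMAC genes was called higher or lower in the *taf1*-mutant library. Of the 10 genes, 8 had reads, and all 8 passed the minimum of 20 reads. Their levels in the mutant library lay between 74.1% and 114% of the control level, 4 above and 4 below equality. For comparison, 12.8% of all measured genes were called higher and 6.16% were called lower. The pooled reads of the 8 genes, 2075 in control and 3397 in mutant, gave 101.7% of the control level (interval 96.3 to 107.5). This value holds for TMM. Scaling by total reads or by the 3 qPCR reference genes of the paper shifts each log2 ratio by -0.26 or -0.33, which takes the pooled value below this interval. *topi* and *mip40*, the latter also a dREAM gene outside the testis, supplied 659 and 474 of the control reads. For 6 of the 8 genes the whole interval lay within 1.5-fold of equality. This count depends on the number of reads, and the share of all measured genes that met the same condition was not computed. For *comr* and *tomb*, which had the fewest reads, a decrease past 1.5-fold was within the counting interval.

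Of the testis TAFs, *can* encodes the homolog of Taf5, the WD-repeat subunit of TFIID. *can* (FBgn0011569; 3L, 10263909 to 10267111, 5 exons) had 248 reads or 14.8 CPM in the control library (13.02 to 16.8) and 383 reads or 14.2 CPM in the mutant library (12.8 to 15.7). Its mutant level was 96.0% of control (81.6 to 113.1), a log2 ratio of -0.06.

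*mia* encodes the homolog of the histone-fold subunit Taf6. *mia* (FBgn0014342; 3R, 5548115 to 5551168, 3 exons) had 197 reads or 11.8 CPM in the control library (10.2 to 13.5) and 361 reads or 13.4 CPM in the mutant library (12.0 to 14.8). At 114% of control (95.5 to 136.2; log2 ratio 0.19), it stood highest of the 8 genes, and its interval included equality.

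*nht*, the homolog of Taf4, is a gene without introns (FBgn0041103; 2L, 15317954 to 15318901, 1 exon). It had 161 reads or 9.61 CPM in the control library (8.18 to 11.2) and 233 reads or 8.64 CPM in the mutant library (7.57 to 9.83). This was 89.97% of control (73.3 to 110.7; log2 ratio -0.15). By pooled reads, *can*, *mia* and *nht* stood at 100.2% of control (90.5 to 111.1). *can* supplied 40.9% of the reads of these 3 genes in the control library (exact binomial interval 37.0 to 45.0) and 39.2% in the mutant library (36.1 to 42.3). The share of *mia* was 32.5% (28.8 to 36.4) and 36.9% (33.9 to 40.1), and the share of *nht* was 26.6% (23.1 to 30.3) and 23.8% (21.2 to 26.6). For each of the 3 genes the intervals of both libraries overlapped.

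**Figure D1:**
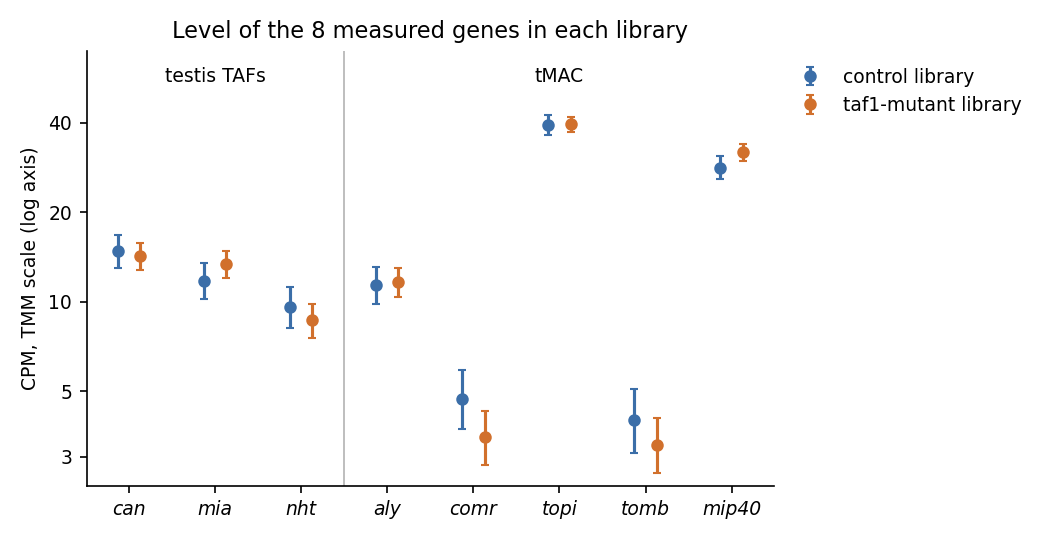
Level of the 8 genes with reads in each library, in CPM on the TMM scale (log axis), with exact 95% Poisson intervals as bars, 1 library per genotype. The control and mutant intervals of each gene overlap, and *topi* and *mip40* lie above the other 6 genes in both libraries.

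The other testis TAFs, *sa* and *rye*, were listed at 0 in both libraries. *sa* (FBgn0002842; 3L, 21405425 to 21406738) encodes the homolog of Taf8, and *rye* (FBgn0031623; 2L, 4700835 to 4701485), the homolog of Taf12, is in the table under its current symbol *Taf12L*. Each of these genes lies entirely inside the span of a longer gene on the opposite strand, *sa* inside *rgn* and *rye* inside *dcma*, and shares 0 exon bases with it in the BDGP6 annotation. None of the other 8 genes lies inside another gene. Over the whole table, 990 of 997 protein-coding genes that lie inside another protein-coding gene on the opposite strand were at 0 in both libraries (99.3%), and so were 798 of 818 on the same strand (97.6%). Of the 11960 protein-coding genes outside other genes, 4.10% were at 0. The values of 0 for *sa* and *rye* are therefore not read here as absence of expression. How the reads were assigned to genes is not given in the sources used here. *tomb* shares 98 exon bases with *Cap-D3* on the opposite strand and is otherwise clear of other genes. Whether reads from these bases were counted was not tested.

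Among the tMAC genes, *topi*, which encodes a protein with many zinc fingers, had the most reads. *topi* (FBgn0037751; 3R, 9775121 to 9777943, 4 exons) had 659 reads or 39.3 CPM in the control library (36.4 to 42.5) and 1066 reads or 39.5 CPM in the mutant library (37.2 to 41.99). The mutant level was 100.5% of control (91.1 to 111.0; log2 ratio 0.01), the value nearest to equality among the 8 genes.

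*mip40*, a homolog of LIN37 that is also part of the dREAM complex outside the testis, followed (FBgn0034430; 2R, 19291105 to 19292196, 1 exon). It had 474 reads or 28.3 CPM in the control library (25.8 to 31.0) and 858 reads or 31.8 CPM in the mutant library (29.7 to 34.0). This was 112% of control (100.4 to 126.1; log2 ratio 0.17), and *mip40* was the 1 gene of the 8 whose counting interval excluded equality, short of the 1.5-fold limit. With scaling by total reads it was at -0.09.

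*aly* is the testis homolog of LIN-9 (FBgn0004372; 3L, 3024129 to 3026521, 3 exons). It had 190 reads or 11.3 CPM in the control library (9.79 to 13.1) and 313 reads or 11.6 CPM in the mutant library (10.4 to 12.97), which is 102% of control (85.2 to 123.3; log2 ratio 0.03).

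*comr* and *tomb* had the lowest CPM and the lowest ratios. *comr*, needed with *aly* in spermatocyte nuclei (FBgn0034667; 2R, 21864870 to 21866859, 1 exon), had 79 reads or 4.72 CPM in the control library (3.73 to 5.88) and 94 reads or 3.49 CPM in the mutant library (2.82 to 4.27). Its level was 74.1% of control (54.2 to 101.0; log2 ratio -0.43). *tomb*, a protein with the CXC domain of LIN54 (FBgn0031715; 2L, 5535861 to 5536758, 2 exons), had 67 reads or 3.999 CPM in the control library (3.10 to 5.08) and 89 reads or 3.30 CPM in the mutant library (2.65 to 4.06). This was 82.7% of control (59.5 to 115.1; log2 ratio -0.27). Both intervals included equality.

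By pooled reads the 5 tMAC genes stood at 102.4% of control (95.9 to 109.3), and the testis TAFs and the tMAC genes differed from each other by a log2 ratio of -0.03 (-0.21 to 0.15). *topi* and *mip40* supplied 44.9% and 32.3% of the tMAC reads of control and 44.0% and 35.5% of those of the mutant, so the pooled value rests mostly on these genes. Ratios between genes within the libraries do not depend on the scaling. Of the 28 pairs among the 8 genes, 2 had an interval that excluded equality, without correction for the number of pairs. Both involved *comr*, which was lower relative to *mia* (log2 difference of *mia* over *comr* 0.62, 0.10 to 1.14) and to *mip40* (*comr* over *mip40* -0.60, -1.08 to -0.12).

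Per transcript length, the order of the 8 genes was the same in both libraries. *mip40* had the highest level, 25.9 CPM per kb in control and 29.1 in mutant flies, and stood at percentiles 66.7 and 68.3 of 11488 measured genes with a known length. *topi* followed with 14.8 and 14.9 CPM per kb, near the median gene (13.9 and 14.4). *nht* came next with 10.1 and 9.12 CPM per kb. *mia* (5.72 and 6.52), *aly* (5.61 and 5.75), *can* (5.01 and 4.81) and *tomb* (4.78 and 3.95) followed, and each of these overlapped its neighbour in this order within the counting intervals. *comr* was lowest with 2.37 and 1.75 CPM per kb, at percentiles 14.4 and 10.7. The levels are averages over whole flies, in which spermatocytes are a small part.

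The general forms were compared in the same libraries. Where both forms had reads, the level of the general form per transcript length was above that of the testis form in each of 5 pairs and in both libraries, but the counting intervals overlapped for 3 pairs in the control library and for 1 in the mutant library. *Taf4* was at 3.46 times the level of *nht* in the control library and 3.02 times in the mutant library, and *Taf6* at 2.49 and 2.18 times the level of *mia*. *Taf5* was at 1.11 and 1.34 times the level of *can*, *mip130*, the general LIN-9 homolog, at 1.12 and 1.07 times the level of *aly*, and *mip120*, the general LIN54 homolog, at 1.24 and 1.37 times the level of *tomb*. These are the 3 pairs that overlapped in the control library, and *mip130* and *aly* also overlapped in the mutant library.

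The mutant-to-control ratio of a testis form was then set against that of its general form, a difference that does not depend on the scaling of the libraries. None of the 5 intervals excluded 0. *can* minus *Taf5* was -0.27 on the log2 scale (-0.61 to 0.07), *mia* minus *Taf6* 0.19 (-0.12 to 0.50) and *nht* minus *Taf4* 0.20 (-0.11 to 0.51). *aly* minus *mip130* was 0.07 (-0.26 to 0.41) and *tomb* minus *mip120* -0.14 (-0.66 to 0.38). Smaller differences, within these intervals, were not detectable at this depth. The difference of *nht* and *Taf4* turned to -0.19 when each gene was set against the 200 genes nearest to it in length and expression, and that of *aly* and *mip130* to -0.15. *Taf4* has a transcript of 4622 nt and *nht* of 948 nt. For *sa* and *rye* no such difference can be given. Their general forms *Taf8* and *Taf12* had log2 ratios of -0.31 (-0.57 to -0.04) and -0.10 (-0.28 to 0.08).

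**Figure D2:**
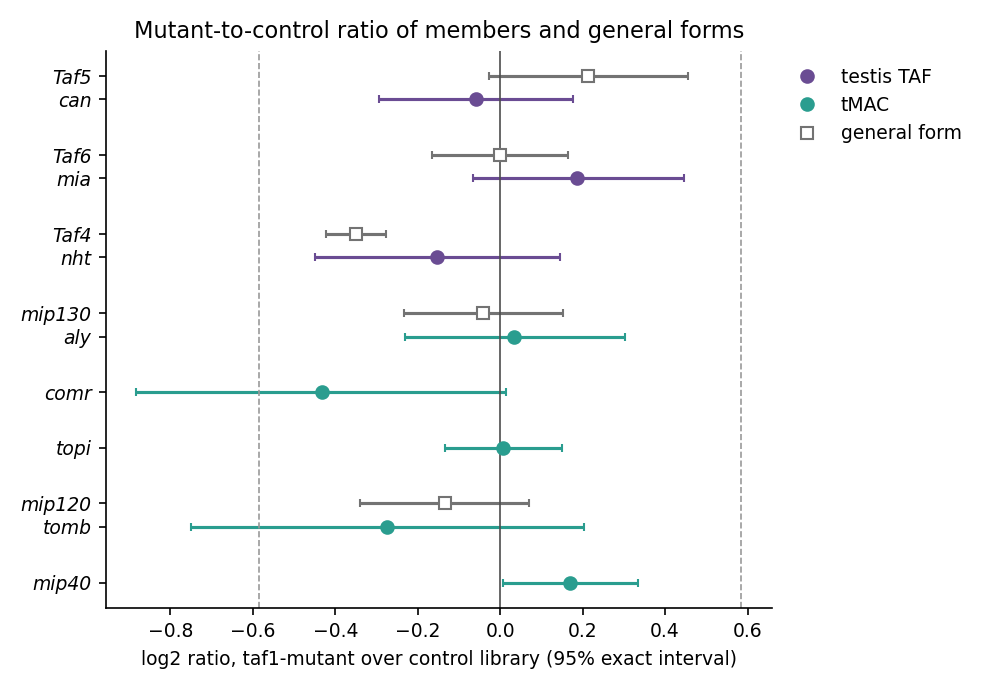
Log2 ratio of mutant over control for the 8 genes (filled) and the general forms of 5 of them (open squares), with exact 95% conditional binomial intervals and the 1.5-fold limit as dashed lines. No point lies past the limit, and the intervals of *comr* and *tomb* reach below it.

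Other gene lists of the same pathway were described beside these 10 genes by their counts and medians. Over all measured genes the median log2 ratio was 0.0064, with 1486 genes higher and 715 lower. The median was -0.06 for the testis TAFs with reads and 0.01 for the tMAC genes. Of 15 general TFIID genes none was called, and their median was -0.0007, from *Taf3* at -0.50 to *Tbp* at 0.40. By pooled reads the 15 genes stood at 85.5% of control (83.3 to 87.9), with *Taf4* supplying 2716 of 9114 control reads. The 5 subunits with a testis homolog stood at 84.8% (81.4 to 88.3). With scaling by total reads 4 of the 15 were called lower, and with the qPCR reference genes 5. Of all measured genes, 19.1% and 23.7% were called lower with these scalings. Of 12 genes of the dREAM complex and its partners none was called with TMM either (median -0.14, pooled reads at 86.9% of control, 84.2 to 89.6), and 3 and 4 were lower with these scalings. Among them were *wuc*, the testis paralog of *lin-52*, at 0.14, and the TGIF homeodomain genes *achi* and *vis*, which act with *aly* and *comr*, at -0.09 and -0.28.

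Of 11 measured genes of a spermatocyte transcription list, 1 was higher and none was lower, beside 12.8% and 6.16% of all measured genes (list median -0.17). The gene was *tbrd-3*, a testis bromodomain gene, with 133 and 335 reads (log2 ratio 0.65, 0.35 to 0.95). Its relatives *tbrd-1*, whose product works with the testis TAFs, and *tbrd-2* were at -0.01 and -0.16. *kmg*, which keeps genes of other tissues off in spermatocytes, was at -0.20 (-0.42 to 0.02). Set against its 200 nearest genes in length and expression, *tbrd-3* was at 0.48, short of 1.5-fold, and 1 gene of the list was lower. With total reads, as with the qPCR reference genes, none of the list was higher and 4 were lower, beside 19.1% and 23.7% lower of all measured genes.

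Genes of the meiotic cell cycle and of later spermatid stages did not all move in 1 direction. *bol*, *twe* and *CycB*, which act at the entry into meiosis, were at log2 ratios of -0.49 (-0.53 to -0.46), -0.52 (-0.62 to -0.41) and -0.20 (-0.29 to -0.11), and none was called. With total reads, and likewise with the qPCR reference genes, 2 of the 3 were lower. Of all measured genes, 19.1% and 23.7% were called lower with these scalings, and 7% and 6.21% higher. With TMM, 12.8% of all measured genes were called higher and 6.16% lower. Of 15 measured genes of the spermatid list, 5 were higher and none was lower (median 0.09). They were *Mst87F* (5911 and 18623 reads, log2 ratio 0.97), *Mst84Db* (0.93), *Mst84Dc* (0.97), *Mst84Dd* (0.67) and *Mst84Da*, which had 2 and 118 reads (4.95, 3.31 to 8.26). These are short transcripts of sperm tail proteins, from 358 to 480.5 nt, and when each gene of the list was set against its 200 nearest genes in length and expression, 1 was higher (*Mst84Da*), 2 were lower (*djl* at -0.68 and *gdl* at -0.71), and the median turned to -0.09. For all measured genes, calls against the nearest genes were not computed. With total reads, and likewise with the qPCR reference genes, 4 genes of the spermatid list were higher and 4 were lower. The sperm tail gene *dj* was at -0.07 and its paralog *djl* at -0.56, and the protamine genes *Mst35Ba* and *Mst35Bb* were at -0.33 and -0.06. Of 10 measured genes of the cup and comet classes, which are transcribed after meiosis, *schuy* was lower at -0.70 (-0.75 to -0.65) and the others were not called (median -0.12). With total reads, and likewise with the qPCR reference genes, 3 were lower.

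Genes of earlier germ cells and of somatic testis cells were set beside these. Over all measured genes, 12.8% were called higher and 6.16% lower with TMM. Of 7 measured early germline genes, 6 were below equality, as were 5722 of all 11606 measured genes, and *vas*, a helicase gene of germ cells, was lower, with 123 and 116 reads (log2 ratio -0.77, -1.15 to -0.39; list median -0.33). With a fold limit of 2 none was called, as against 1.7% of all measured genes called lower. With total reads, as with the qPCR reference genes, 5 of the 7 were called lower. Of all measured genes, 19.1% and 23.7% were called lower with these scalings. Of 6 somatic testis and cyst cell genes, 4 were below equality and none was called with TMM (median -0.22), against 3 lower under each of those scalings. Male accessory gland genes went both ways, with 2 higher and 2 lower of 6. *Acp98AB* (1.48) and *Acp70A* (0.71) were higher, and *Acp26Aa* (-0.83) and *Acp53Ea* (-0.64) were lower. Against its 200 nearest genes in length and expression *Acp70A* was at 0.27 and no longer called. Of 9 measured female and ovary genes *Cp15* was higher (0.64), and *Yp1* (-1.79) and *Vm26Ab* (-1.31) were lower, each with no more than 123 reads in a library. *Cp15* was at 0.51 and no longer called against its 200 nearest genes. The part of these tissues in the values of the 10 genes was not tested.

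**Figure D3:**
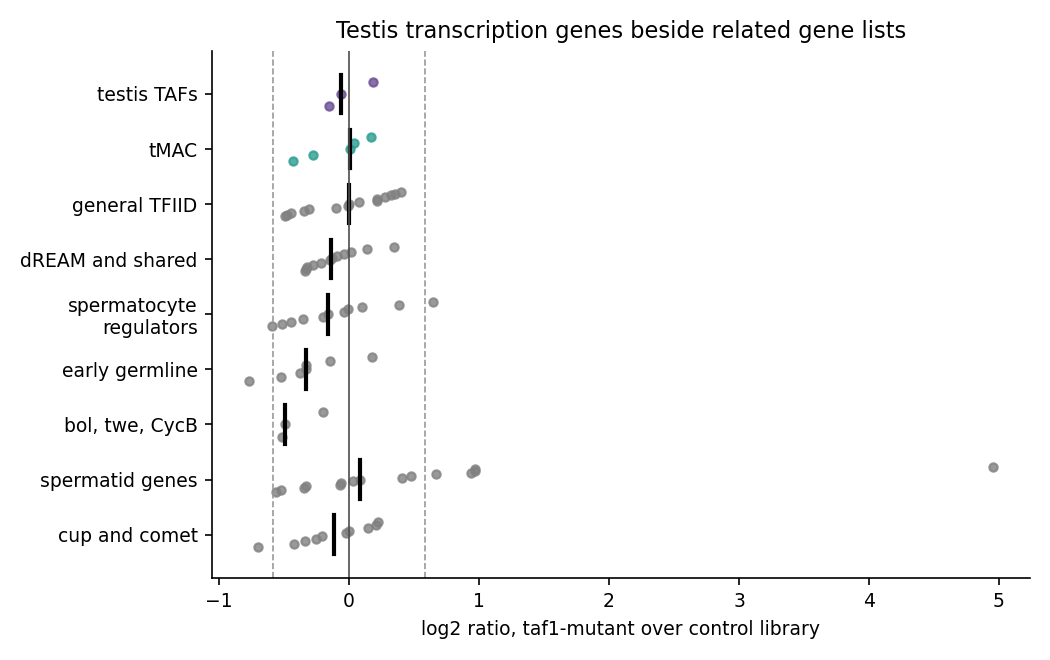
Log2 ratio of mutant over control for each measured gene of 9 lists (points) with the list median (black bar), and the 1.5-fold limit as dashed lines. The testis TAFs and tMAC genes lie between -0.43 and 0.19, whereas the spermatid list runs from -0.56 to 4.95.

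The direction of single genes depended on how the libraries were scaled. With TMM, median-of-ratios and upper-quartile scaling, *can*, *nht*, *comr* and *tomb* were below the control level and *mia*, *aly*, *topi* and *mip40* above it. With the authors' scaling, and with the median of the spermatid genes set to equality, *mia* and *mip40* alone stayed above. With scaling by total reads and with the mean ratio of the 3 qPCR reference genes set to equality, all 8 genes were below the control level, from -0.70 for *comr* to -0.08 for *mia* with total reads. Then *comr* was called lower with total reads, and *comr* and *tomb* with the qPCR reference genes. With total reads 19.1% of all measured genes were called lower, and with the qPCR reference genes 23.7%, so 1 and 2 of 8 genes are near that background. *comr* was below and *mia* above the other genes under each scaling, because scaling moves all genes alike.

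**Figure D4:**
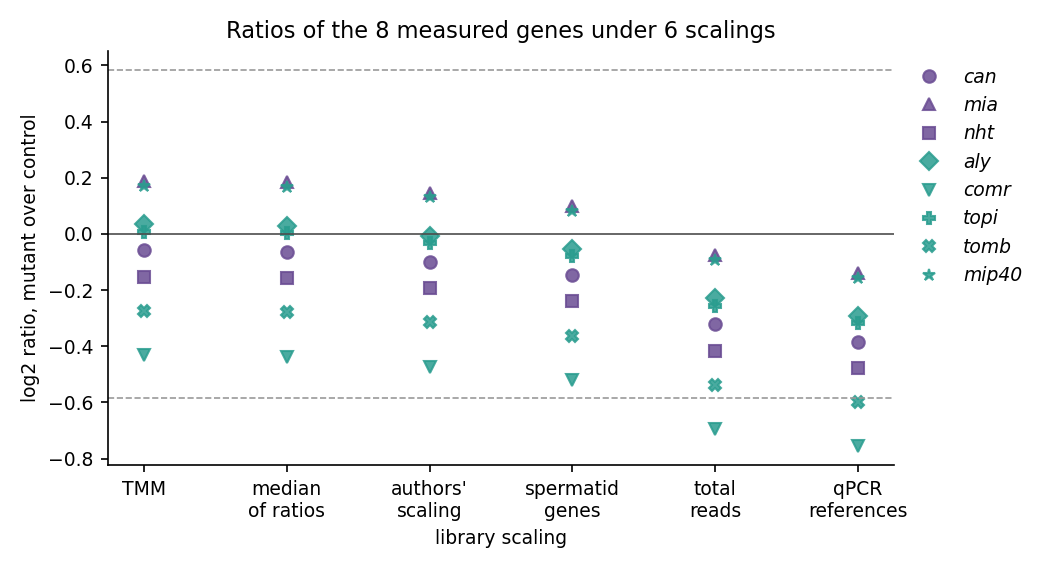
Log2 ratio of the 8 genes under 6 scalings of the libraries, with the 1.5-fold limit as dashed lines (testis TAFs in purple, tMAC genes in green). All 8 points lie below 0 for total reads and for the qPCR references, and *comr* is lowest throughout.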

How the data were processed

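RNA of 10 whole flies per genotype was prepared with a stranded mRNA kit and sequenced on an Illumina HiSeq by a genomics core, per the labels and the paper. The submitters' notes name the build BDGP6. For the aligner, the counter, the annotation release and the factors, no source used here gives details. The deposited table holds a signal for each of 17559 genes, made by the authors from read counts and 1 factor for each library. Every value (100%, within 0.001 of a read) was a whole multiple of the smallest value of its column, so the reads were recovered.

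The library size ratio came from edgeR 4.0.16 (TMM) and DESeq2 1.42.0 (median of ratios) in R 4.3.3. All else was done with scipy 1.17.1, pandas 2.3.3 and numpy 2.4.6 (Python 3.11.15). The prior count was 0.5 for log2 ratios, and calls used ratios without it. No count model was fitted, since 0 residual degrees of freedom remain with 1 library in each group. Of the 17559 gene names, 17315 were matched to the Ensembl annotation of BDGP6 (positions, exons, median transcript length), directly or through synonyms in the RefSeq table. The calculations were tested on simulated Poisson counts with a known library size ratio and set fold changes. The simulation held no variation between libraries and no scaling error, so it covers counting error only. Each measured gene of the 10 and of the lists was also set against the 200 measured genes nearest in transcript length and expression. Calls on this basis were not made over all measured genes, so they have no background share. The 10 genes are all named with their general forms, and of each other list the called genes, up to 3 in each direction with at least 50 reads. Other genes, such as *Mst84Da*, *Mst84Dd* and *dj* and genes that were not called, were named after their values were seen, and *Yp1* and *Vm26Ab* have fewer than 50 reads. The 10 genes and the lists were chosen with earlier results of these data known. No sequences were used.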

Additional observations from a re-analysis of the deposited data

How the results depend on the processing

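With scaling by total reads, 1 of the 8 genes was called lower (none with TMM), the median log2 ratio of the testis TAFs was -0.32 and that of the tMAC genes -0.26. With the qPCR reference genes, 2 were called lower and the medians were -0.38 and -0.32. Under these 2 scalings the median over all measured genes moved to -0.26 and -0.32. Relative to the 200 nearest genes in length and expression, *nht* minus *Taf4* was at -0.19. On this basis 3 of the 8 genes were above equality and 5 below, with *nht* at -0.34 and *aly* at -0.11. The other scalings, the prior count of 2, the minimum of 10 or 50 reads or none, and a smaller and a larger fold limit gave 0 calls among the 8 genes. The tMAC median, 0.01 with TMM, was at -0.03 with the authors' scaling, -0.08 with the spermatid genes at equality and -0.11 against the nearest genes in length and expression. Calls over all genes depended more on the setting. Higher genes made up 67.5% of the calls with TMM, 26.8% for total reads and 20.8% for the qPCR reference genes. No paired analysis was possible because each genotype has 1 library, and for the same reason no replicate could be left out. Depth limits *comr* and *tomb*, with 173 and 156 reads in both libraries together.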

Other observations

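The position of a gene inside another gene, which goes along with the values of 0 for *sa* and *rye*, touched the other lists as well. Over the 10 genes and all comparison lists, 19 genes were listed at 0 in both libraries, and 19 of these lie inside the span of another protein-coding gene. No gene of these lists that lies inside another gene had a read. Among them are the fusion gene *fzo* of spermatid mitochondria, the sperm chromatin gene *Mst77F*, *fest* of the spermatocyte list, the gap junction gene *zpg* and 7 of the cup and comet genes. In the whole table, 1788 of 1815 protein-coding genes inside another gene were at 0 (98.5%), and 23 had at least 20 reads. These genes are 1788 of the 2278 protein-coding genes at 0.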
